A study of Mus musculus with 66 samples.

Results

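DNA replication genes encode the proteins that mark replication origins, load and start the helicase that opens the double strand, and copy, clamp and join the new strands. The 42 genes described here were chosen by symbol and fall into 7 roles: origin recognition (6 genes, Orc1 to Orc6), licensing (9, Cdc6, Cdt1, Gmnn and Mcm2 to Mcm7), helicase activation (6, Mcm10, Cdc45 and Gins1 to Gins4), polymerases and primase (8), clamp and clamp loader (6, Pcna and Rfc1 to Rfc5), single-strand binding and fragment joining (5, Rpa1 to Rpa3, Fen1 and Lig1) and ribonucleotide reductase (2, Rrm1 and Rrm2). All 42 were found among the 24062 genes of the deposited table, and all 42 passed the filter on low values in every comparison. The comparisons ask how their mRNA changed when germ cells left premeiotic S phase, and how it differed between oocytes that stay small and oocytes that grow and store mRNA.

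Replication starts where the origin recognition complex sits on DNA and, with CDC6 and CDT1, loads the ring of MCM2 to MCM7, a step that geminin (Gmnn) blocks. CDC45 and the GINS complex turn the loaded ring into an active helicase, and polymerases alpha, delta and epsilon then copy the strands with the sliding clamp PCNA, which replication factor C (RFC) places on DNA. Female germ cells copy their DNA for the last time just before meiotic prophase. Oocytes then grow without replicating, and the egg stores mRNA and protein that the embryo uses for its earliest S phases.

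The series measured poly(A) RNA in 66 libraries of 24 groups. From ovaries with a stella-ECFP reporter (C57BL/6 x B6D2F1) came 3 libraries each of germ cells at E14.5, E16.5 and E18.5, of oocytes at P1 and P3, and of P4 and P6 oocytes labelled small or large. From embryonic stem cells (C57BL/6 X 129/SvJ), made into primordial germ cell-like cells and aggregated with fetal gonadal somatic cells as reconstituted ovaries, came 3 libraries each at 9 days of culture between D5 and D20. After 21 days of the same culture, 2 libraries each came from wild-type (WT) and from Foxo3dNES transgenic (Tg) oocytes under normoxia (air with 5% CO2), under hypoxia (5% O2) and with no oxygen condition in the label. Every culture received a Rock inhibitor at its start. The size limit between small and large oocytes, the promoter of the transgene, the number of Tg lines and the number of animals or cultures behind a library are not given in the sources used here. The replicates are called biological in the design text, and p-values measure the spread between these libraries.

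Values are RPM, the reads of a gene out of each 1e+06 reads of the library and so the share of a library's reads that a gene took. Depth was 13.9 to 23.2 × 1e+06 reads per ovarian library, 14.7 to 22.8 × 1e+06 in the culture course and 4.84 to 21.3 × 1e+06 at D21, so that 3 reads stood for 0.129 to 0.619 RPM. Stra8, a gene switched on at meiotic entry, fell from 582 RPM at E14.5 to 21.4 at E16.5 and 0.48 at E18.5, and Gdf9, a growth factor of growing oocytes, was at 293 RPM in small and 4919 in large oocytes at P6. None of the 7 germ cell and oocyte markers was at 0 in any group. Library 2 of D5 stood apart from its replicates (Pola1 at 35.5 RPM against 90.2 and 89.8), with the largest count differences of any replicate pair (chi-square per gene 229 and 178). Library 3 of D11 stood apart as well (Orc5 at 139 RPM against 55.6 and 66.2), and so did library 2 of WT D21 normoxia (Mcm2 at 66.7 against 117). The D9 to D11 libraries held more mRNA of other ovarian cells than their neighbours, with summed granulosa markers of 213 to 476 RPM, against 39 to 56 at D5 and D7 and 21.3 to 29.5 at D13. In such bulk samples, fewer cells of a type and less RNA per cell cannot be told apart.

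Across the ovarian stages the 42 genes together were highest at E14.5. Their summed level was 6566 RPM there (range of 3 libraries 6294 to 6738), 3618 at E16.5 (3419 to 3878) and 4076 at E18.5 (4015 to 4171). It was 4203 RPM in small oocytes at P6 (4167 to 4232) and 3579 in large ones (3451 to 3680). No later ovarian library reached the lowest library of E14.5. The culture course began at a like sum, 6600 RPM at D5 (6376 to 6866), and ended at 3824 at D20 (3762 to 3932).

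**Figure D1:**
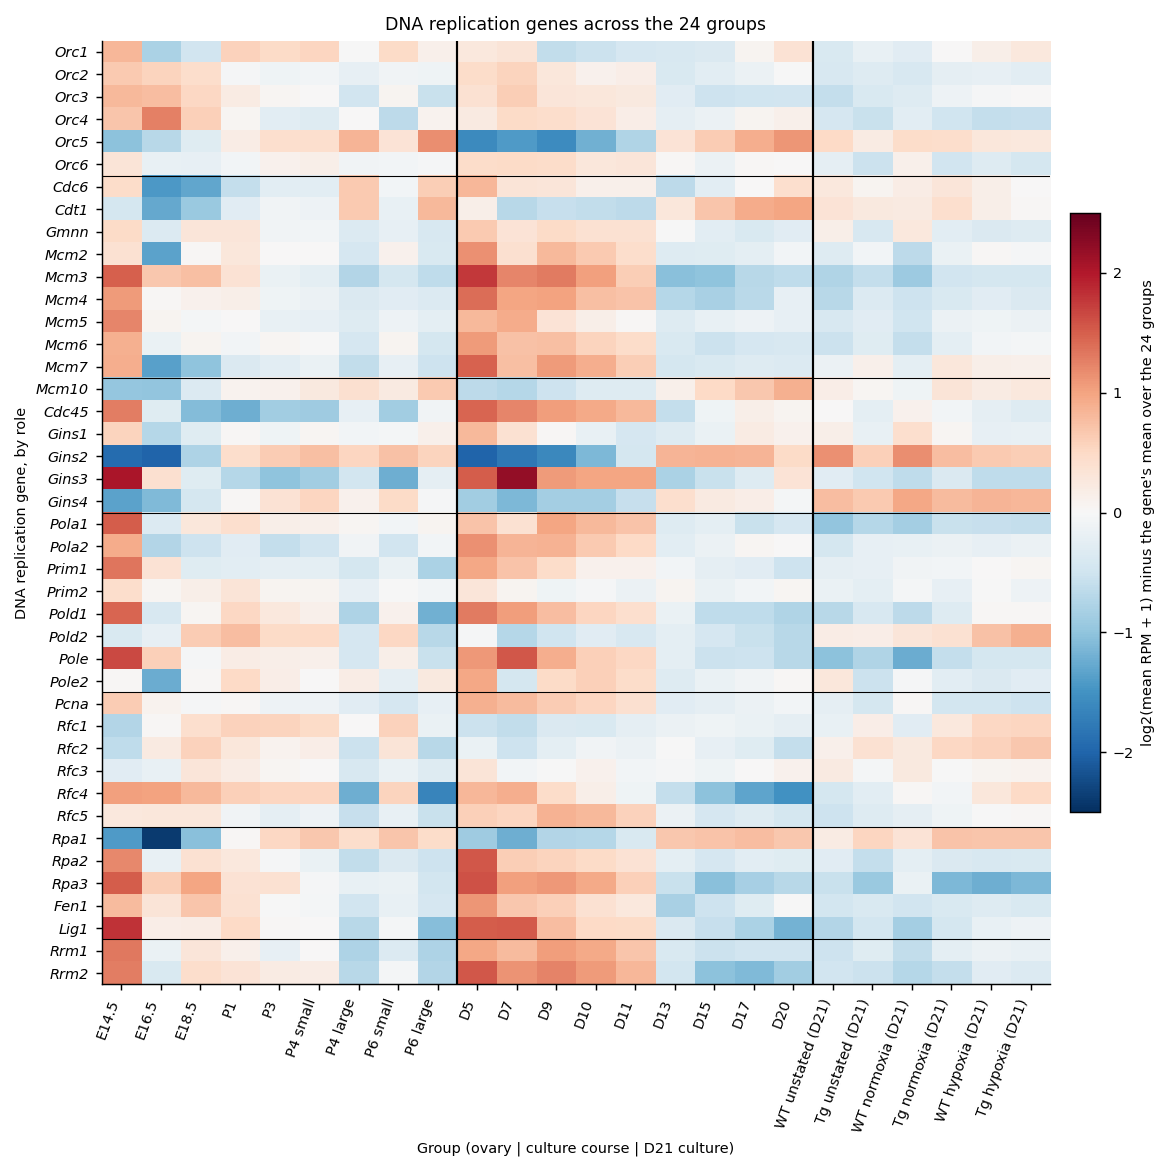
Colour gives log2(mean RPM + 1) of each gene in each group (columns) minus that gene's mean over the 24 groups, with the 42 genes (rows) ordered by role. The E14.5 and D5 columns are high for most genes, with a summed level of 6566 and 6600 RPM, whereas Orc5, Gins2 and Rpa1 are low there and high in later oocytes.

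Leaving premeiotic S phase, germ cells held less mRNA of every licensing gene. Between E14.5 and E16.5, 29 of 42 genes fell and 5 rose in limma's test at an adjusted p under 0.05, where 24.6% of all 15401 tested genes fell and 42.7% rose. The median log2 change of the 42 genes was −0.94, against 0.20 for all genes. RPM are shares, so each comparison was repeated under 4 other scalings (median-of-ratios rescaling, edgeR, DESeq2, and limma on log2 CPM after TMM). Under all of them the same 29 genes fell and 3 of the 5 rose (Orc4, Rfc1 and Rfc2), where 22.9% and 30.2% of all genes were called in every scaling.

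In licensing all 9 genes fell at E16.5. Mcm7, a ring subunit, was at 187, 206 and 240 RPM at E14.5 and at 36, 37.4 and 57.2 at E16.5, a log2 change of −2.28 ± 0.12 (SE, n = 3 libraries a group, limma adjusted p = 5.9e-14). Every E14.5 library lay far above every E16.5 library. Cdc6, which brings the ring to the origin, went from 34.4, 36.7 and 49.9 RPM to 7.09, 9.58 and 13.9 (log2 −1.91 ± 0.18), with no overlap. Mcm2 fell by 1.72 on the log2 scale and Cdt1 by 0.82. Geminin, the inhibitor of CDT1, fell by 0.81 as well.

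The origin recognition complex split. Orc1, the ATPase subunit whose level follows the cell cycle in many dividing cells, fell from a mean of 116.2 to 37.5 RPM (log2 −1.61 ± 0.09, limma adjusted p = 6.8e-14), and Orc6 fell by 0.52. Orc4 rose from 89.5 to 133 RPM (log2 0.56) and Orc5 from 70.9 to 90.1 (0.35, not called under the other scalings). Orc2 and Orc3 did not pass the test, with log2 changes of −0.08 and −0.03.

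At the helicase, Gins3 (log2 −1.67), Cdc45 (−1.59) and Gins1 (−1.28) fell at E16.5, while Gins4 rose by 0.25 in RPM only, and lost that sign in edgeR and DESeq2. Mcm10, a factor that helps to start unwinding, and Gins2 did not pass (−0.03 and −0.08). Of the polymerase genes 7 of 8 fell. The largest falls were those of Pold1, the catalytic subunit of polymerase delta (log2 −1.88 ± 0.13), Pola1, that of polymerase alpha (−1.86 ± 0.13), and Pola2 (−1.68 ± 0.13). Pold2 did not pass, at 47.5 and 53.7 RPM.

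Of the clamp loader subunits 2 moved against most of the set. Rfc2 rose from 51.8 to 95.2 RPM (log2 0.86 ± 0.08) and Rfc1, the large subunit, from 118 to 199.7 (0.75 ± 0.06), whereas the clamp Pcna fell by 0.55. Rfc3, Rfc4 and Rfc5 did not pass, with log2 changes of 0.11, 0.00 and 0.02. The single-strand binding and joining genes all fell, among them Lig1, the ligase that joins Okazaki fragments (log2 −1.66), Rpa2 (−1.40) and Rpa1 (−0.97). Both subunits of ribonucleotide reductase, which makes deoxynucleotides, fell: Rrm2 by 1.72 and Rrm1 by 1.47.

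Against E14.5, 26 of 42 genes were lower and 9 higher, where 30% and 40% of all genes were, with a median of −0.54 (all genes 0.14). Under every scaling the numbers were 26 and 8 (all genes 28.5% and 32.5%), the ninth, Rpa1, being lost. This comparison shares the E14.5 libraries with the one before. Cdc45 and Gins3 fell furthest. Cdc45 was at 105, 106 and 109 RPM at E14.5 and at 19.6, 19.4 and 20.9 at E18.5 (log2 −2.36 ± 0.10, limma adjusted p = 2.2e-16), and Gins3 at 77, 81.1 and 71.2 and then at 15.4, 13.1 and 14.4 (−2.34 ± 0.16).

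Among the other falls at E18.5 were Mcm7 (log2 −1.91), Cdc6 (−1.73), Pole, the catalytic subunit of polymerase epsilon (−1.68), Prim1, the catalytic primase subunit (−1.62), Lig1 (−1.62), Pola2 (−1.44), Orc1 (−1.30), Mcm5 (−1.27), Rrm1 (−1.0), Rrm2 (−0.85), Rpa2 (−0.83) and Pcna (−0.66). The genes that rose were Rfc2 (1.21), Gins2 (1.16), Rfc1 (1.15), Pold2 (1.02), Gins4 (0.91), Orc5 (0.74), Mcm10 (0.62), Rfc3 (0.59) and Rpa1 (0.37). Mcm2 was at a mean of 189 RPM at E14.5, 57.1 at E16.5 and 148 at E18.5, so its E18.5 change was small (−0.35 ± 0.12, adjusted p = 0.013). Rfc4, Rfc5, Fen1, the flap nuclease, Orc4, Gmnn, Rpa3 and Pole2 did not pass.

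Many markers of other ovarian cells rose over the same step, at which 42.7% of all genes rose and 24.6% fell. Of 10 granulosa markers 7 rose and 1 fell at E16.5, their summed level going from 16.8 to 30.2 RPM at E14.5 to 73.6 to 82.9 at E16.5. Of 7 tested stroma and theca markers 4 rose and 0 fell, their sum going from 7.16 to 10.4 RPM to 50.9 to 97. Fshr and Tcf21 were at 0 in both stages, and Cyp19a1 was at 0 at E14.5. The part of other cells in the changes of the replication genes was not tested.

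Other genes of replication and the cell cycle are given from 5 lists, to be read against 24.6% of all genes that fell and 42.7% that rose at E16.5 in RPM, and 32.2% and 33.6% after rescaling. Of 33 other initiation and fork factors 21 fell and 7 rose at E16.5 (4 rose after rescaling), among them Top2a, the topoisomerase that untangles copied DNA (248 against 1016 RPM, log2 −2.05), Ticrr, which helps CDC45 onto the ring (−2.0), and Wdhd1, a fork bridge between helicase and polymerase alpha (−1.77). The rises were led by Mtbp (0.83), Rif1 (0.65) and Rnaseh1 (0.53). Of 13 nucleotide supply genes 8 fell (11 after rescaling), led by Tk1, thymidine kinase (5.18 against 58.2 RPM, log2 −3.41), Dck (−2.46) and Cad (−2.11), and 2 rose (1 after rescaling), Samhd1 (0.58) and Impdh2 (0.32). Of 12 replication-coupled chromatin genes 7 fell, led by Asf1b (−1.66), Dnmt1 (−1.22) and Slbp (−1.15), and 3 rose (2 after rescaling), Uhrf1 (1.15), Asf1a (0.51) and Tonsl (0.39).

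The switches of S phase and the mitotic genes were mixed. Of 24 switch genes 13 fell at E16.5 (14 after rescaling), led by Fbxo5 (log2 −1.61), Cdc25a (−1.47) and E2f2 (−1.32), and 7 rose (6 after rescaling), led by E2f3 (1.27), Rbl1 (1.24) and E2f6 (1.15). Of 18 genes of mitotic division 8 fell (10 after rescaling), led by Aurkb (−2.17), Ccnb1 (−1.38) and Bub1 (−1.13), and 5 rose (3 after rescaling), led by Cdk1 (1.05), Cenpe (0.89) and Birc5 (0.64). By E18.5 Top2a had reached 73.1 RPM (log2 −3.79) and Ccne2, a cyclin of S phase entry, 33.5 against 218 (−2.64), whereas E2f5 rose from 63.4 to 283 RPM (2.16).

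E2F factors are the best-known regulators of replication genes, so the promoters of members that fell together are shown with the E2F letters found in them. RefSeq promoters of the build GRCm38.p6 were matched by symbol for 34 of the 42 genes. The motif was any of TTTCCCGC, TTTGGCGC, TTTCGCGC and TTTGCCGC on either strand, within 250 bases before to 50 bases after the transcription start. The lines give the 250 bases before the start, 5′ to 3′ on the gene's strand, with motif letters in capitals (where matches on both strands overlap, the capitals form 1 run). Orc1 (chr4:108579204-108579453, plus strand), Cdc6 (chr11:98907901-98908150, plus strand) and Mcm6 (chr1:128359706-128359955, minus strand) fell at E16.5 and are shown because they hold 1, 1 and 3 matches, and Orc5 (chr5:22550339-22550588, minus strand), which was higher at E18.5 under every scaling, because it holds 0.
Orc1: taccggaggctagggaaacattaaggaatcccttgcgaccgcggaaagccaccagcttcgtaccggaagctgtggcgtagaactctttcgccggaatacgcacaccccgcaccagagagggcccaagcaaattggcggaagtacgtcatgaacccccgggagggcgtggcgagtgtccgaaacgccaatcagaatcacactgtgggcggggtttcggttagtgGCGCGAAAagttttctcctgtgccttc
Cdc6: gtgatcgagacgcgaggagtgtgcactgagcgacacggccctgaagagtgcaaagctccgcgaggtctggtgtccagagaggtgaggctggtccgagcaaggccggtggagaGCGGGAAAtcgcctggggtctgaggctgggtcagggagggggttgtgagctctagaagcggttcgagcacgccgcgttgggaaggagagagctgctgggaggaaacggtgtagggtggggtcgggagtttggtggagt
Mcm6: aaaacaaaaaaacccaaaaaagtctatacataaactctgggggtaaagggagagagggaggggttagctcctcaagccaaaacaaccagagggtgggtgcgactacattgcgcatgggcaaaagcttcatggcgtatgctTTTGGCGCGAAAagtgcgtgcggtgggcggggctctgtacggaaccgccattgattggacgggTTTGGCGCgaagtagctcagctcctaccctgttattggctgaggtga
Orc5: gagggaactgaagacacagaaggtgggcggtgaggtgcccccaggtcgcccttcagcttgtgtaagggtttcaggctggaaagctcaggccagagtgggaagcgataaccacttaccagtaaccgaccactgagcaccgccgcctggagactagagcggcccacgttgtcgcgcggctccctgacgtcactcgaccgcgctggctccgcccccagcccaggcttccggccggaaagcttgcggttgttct

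The match of Orc1 begins 27 bases before the start, that of Cdc6 138 bases before, and those of Mcm6 110, 106 and 47 bases before. In Mcm6 the matches at 110 and 106 overlap. Over the set, 14 of 34 genes held a match (41.2%), against 704 of the 27025 genes in the promoter table (2.60%). In licensing 6 of 7 genes with a promoter held one. The 20 matches lay at a median of 34 bases before the start, 65% of them within 100 bases. The members' promoters were richer in G and C (median 60.7% against 52.7%), and all of the motif's letters after its run of T are G or C; no test was made of the motif's share. Of the 14 genes with a match 12 fell and 0 rose at E16.5 (median log2 −1.42), and of the 20 without one 12 fell and 3 rose (median −0.54). At E18.5, 12 of the 14 were lower and 1 higher (median −1.25), and of the 20 without one 10 were lower and 5 higher (median −0.28). The 1 higher was Rfc3, with matches at 10 bases before the start and at 0, and it was higher under every scaling. In large against small oocytes at P6 the 2 sets were alike in RPM. Of the 14, 3 were higher and 6 lower (median −0.17), and of the 20, 6 were higher and 10 lower (median −0.23). Over all genes 22.1% were higher and 51.3% lower at that step. Changes of other genes with a match were not counted. A match is a description of letters and no evidence of binding. No promoter was matched for Gmnn, Mcm4, Gins1, Gins2, Gins4, Prim2, Pole and Rfc2.

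Between E18.5 and P3, when oocytes are enclosed in primordial follicles, members moved in both directions. Of the 42 genes 10 rose and 13 fell, where 26% and 32.3% of all genes did (all scalings 10 and 11, against 25.2% and 25.9%). The shares of members that rose and fell were thus near those of all genes. None of the 8 polymerase genes passed the test. Rpa1, the large single-strand binding subunit, rose most, from 130, 160 and 133 RPM to 409, 453 and 399 (log2 1.57 ± 0.10, limma adjusted p = 8.6e-12), with no overlap. Gins2 rose by 1.41, Cdc6 by 1.04, Orc1 by 0.95, Cdt1 by 0.85, Gins4 by 0.80, Mcm7 by 0.76, Orc5 by 0.72, Mcm10 by 0.46 and Orc6 by 0.31. The largest falls were those of Mcm3 (−0.91), Orc4 (−0.87), Gins3 (−0.72) and Fen1 (−0.71). Of 7 tested stroma markers 4 fell, from a sum of 31.2 to 69.4 RPM at E18.5 to 8.47 to 21.6 at P3, and of 10 granulosa markers 5 fell. Their part was not tested.

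In growing oocytes members moved in both directions, and many of the calls depended on the scaling. In large against small oocytes at P6, 9 of 42 genes were higher and 19 lower in RPM, where 22.1% of all genes were higher and 51.3% lower. All genes together had a median log2 change of −0.41, and after median-of-ratios rescaling the members' split turned to 27 higher and 5 lower (all genes 36.2% and 34.3%). The calls that did not depend on the scaling were 9 higher and 5 lower (all genes 21.9% and 33.5%), so the share of members that were higher was near that of all genes. The 9 were Orc4, Orc5, Cdc6, Cdt1, Mcm10, Cdc45, Gins3, Pola2 and Pcna, and the 5 were Pold1, Pold2, Rfc2, Rfc4 and Lig1. By role, in RPM, 2 origin recognition genes were higher and 2 lower, 2 licensing genes higher and 3 lower, and 3 helicase genes higher and 1 lower, with 1 polymerase gene higher and 4 lower and 1 clamp or loader gene higher and 4 lower.

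Rfc4, a small clamp loader subunit, fell furthest, with values that are uncertain because of an exon overlap with Eif4a2, described below. Its levels were 120, 116 and 120 RPM in small and 25.1, 26.4 and 24.1 in large oocytes at P6 (log2 −2.19 ± 0.12, limma adjusted p = 8.5e-15; −1.60 after rescaling). At P4 they were 125, 119 and 109 in small and 36, 30.3 and 35.6 in large (−1.77 ± 0.12), so small and large oocytes did not overlap at either age. Its levels at E14.5 were 214, 155 and 130. Pold1 was the next, at 102, 137 and 113 RPM in small and 46.8, 47.5 and 46.2 in large oocytes at P6 (log2 −1.30 ± 0.13; −0.69 rescaled). The remaining falls in every scaling were Pold2, the second subunit of polymerase delta (log2 −1.22; −0.62 rescaled), Rfc2 (−1.02; −0.42) and Lig1 (−1.02; −0.41).

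Among the rises with growth, Gins3 went from 5.99, 9.29 and 6.09 RPM to 16.4, 13.8 and 14.9 at P6 (log2 1.01 ± 0.16; 1.58 rescaled). Cdt1 went from 88.5, 84.9 and 78.5 RPM to 158, 169 and 175 (0.99 ± 0.11, limma adjusted p = 1.4e-08; 1.60 rescaled). Orc5 rose from 181, 184 and 196 RPM to 313, 339 and 330 (0.81 ± 0.09; 1.42 rescaled). In all of these the lowest large library lay above the highest small one. Cdc45 rose by 0.78, Orc4 by 0.73, Cdc6 by 0.70, Mcm10 by 0.43, Pola2 by 0.40 and Pcna by 0.21.

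The other members depended on the scaling. Orc1 (−0.35), Mcm2 (−0.48), Mcm6 (−0.51), Mcm7 (−0.33), Gins4 (−0.51), Rpa1 (−0.24), Fen1 (−0.23), Rrm1 (−0.42) and Rfc5 (−0.37; 0.23 rescaled) were lower in RPM and had a change above 0 after rescaling. Rfc1 (−0.74), Pole (−0.71), Rrm2 (−0.69), Prim1 (−0.63) and Orc3 (−0.62) were lower in RPM and did not pass after rescaling, with changes of −0.13 to −0.02. Orc2, Orc6, Gmnn, Mcm3, Mcm4, Mcm5, Gins1, Gins2, Pola1, Prim2, Pole2, Rfc3, Rpa2 and Rpa3 did not pass in RPM, with log2 changes of −0.24 to 0.48. Mcm5 was at 234, 227 and 240 RPM in small and 215, 224 and 208 in large oocytes.

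P4, with other libraries, gave 7 higher and 24 lower genes in RPM (all genes 20.5% and 48.7%) and 17 and 7 after rescaling (33.2% and 31%). Under every scaling 7 were higher and 7 lower (20.2% and 30.2%). At both ages 7 genes were higher and 18 lower in RPM, and 0 changed in opposite directions. The share of all genes that did so at both ages was not counted. The 7 were Orc4, Orc5, Cdc6, Cdt1, Cdc45, Gins3 and Pola2. Rrm1 (log2 −0.78) and Rrm2 (−0.87) were lower at P4 under every scaling. In RPM the effect of size differed between the ages for Pcna and no other member (interaction 0.37 ± 0.11, limma adjusted p = 0.038, over 0.05 when any of 9 of the 12 libraries was left out, where 2.64% of all genes passed in this direction and 5.88% in the other). The 4 other scalings called 2 to 8 members higher, and the fit of only these groups 3 higher and 4 lower. Shares of all genes under those settings are not given, so these counts cannot be set against them.

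At P6 all 7 tested stroma markers were lower in large oocytes (summed 7.71 to 29.6 RPM in small, 1.44 to 1.87 in large). Of 10 granulosa markers 3 were higher and 4 lower, with sums of 8.9 to 20.7 and 62.3 to 69.3 RPM. Nr5a2 alone was at 61.2 RPM in large oocytes. Krt19 was at 0 in large oocytes and Fshr in small ones. The part of other cells was not tested.

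**Figure D2:**
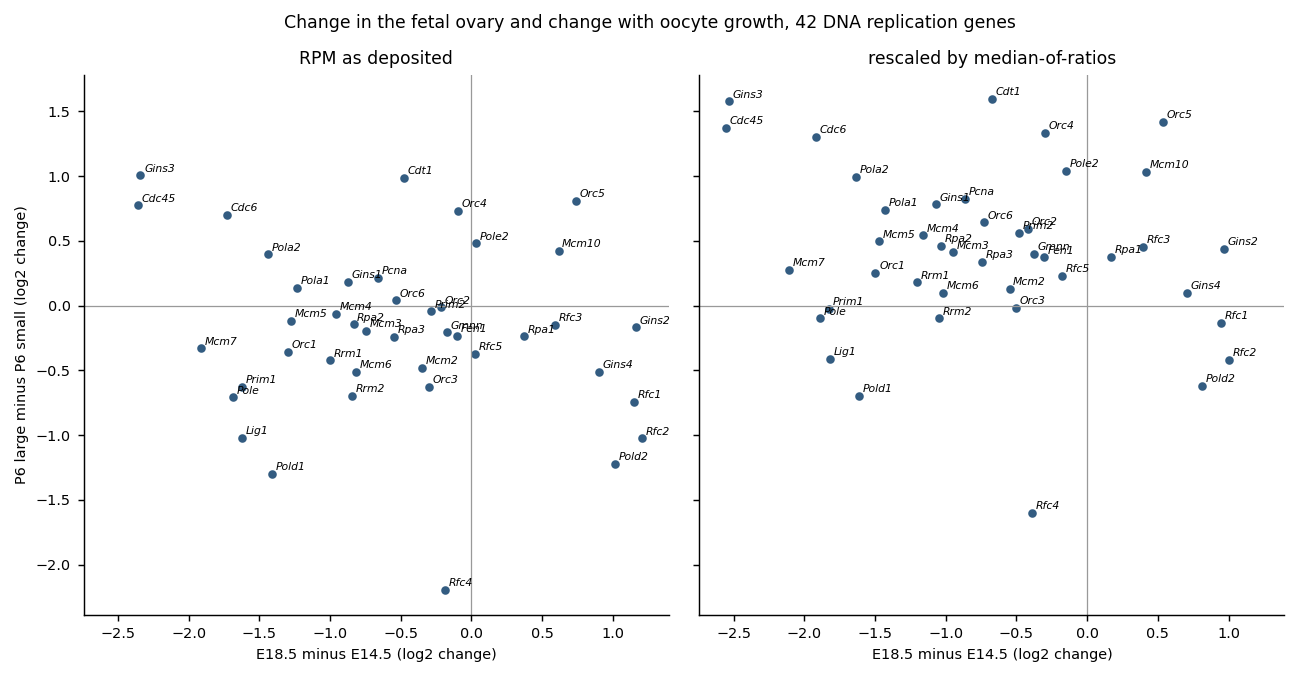
Each point is 1 of the 42 genes, with its log2 change from E14.5 to E18.5 (horizontal) and from small to large oocytes at P6 (vertical), in RPM on the left and after median-of-ratios rescaling on the right. Cdc45 (−2.36 and 0.78) and Cdc6 (−1.73 and 0.70) lie at the upper left of the RPM panel, Pold2 (1.02 and −1.22) and Rfc2 (1.21 and −1.02) at the lower right.

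Setting the fetal and the growth step side by side, 6 genes were lower at E18.5 than at E14.5 and higher in large than in small oocytes at P6: Cdc6, Cdt1, Cdc45, Gins3, Pola2 and Pcna. They are 14.3% of the members, and 6.02% of all genes did the same in RPM. Cdc6 was at 34.4, 36.7 and 49.9 RPM at E14.5, 11.1, 12.7 and 10.2 at E18.5, 23.7, 25.5 and 33.9 in small and 38.5, 48.2 and 49.7 in large oocytes at P6. In RPM, large oocytes thus overlapped E14.5 and did not overlap small ones. The change of Cdc6 from E14.5 to P6 large did not pass limma's test in RPM (log2 0.18 ± 0.18, adjusted p = 0.35). That comparison depends on the scaling, with 7 members higher than E14.5 in RPM (32.1% of all genes) and 11 under each of the other scalings (share of all genes not given). A return of Cdc6 to its E14.5 level is therefore not shown. Cdt1, with 58.1, 66.5 and 84.6 RPM at E14.5 and 49.5, 48.3 and 50.1 at E18.5, was in large oocytes above every E14.5 library.

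Cdc45 and Gins3 stayed below their fetal level. Cdc45 was at 24.2, 21.5 and 24.2 RPM in small and 38.4, 42 and 41.3 in large oocytes, against 105 to 109 at E14.5, and Gins3 in large oocytes reached at most 16.4 against at least 71.2. Pola2, the accessory subunit of polymerase alpha, was at 64.7, 67.8 and 65.9 RPM at E14.5, 23.5, 22.4 and 25.6 at E18.5, 26.6, 23.4 and 23.7 in small and 32.1, 32.8 and 32.9 in large oocytes. Pcna was at 264, 275 and 263 RPM, then 166, 172 and 168, then 126, 124 and 132 in small and 147, 155 and 142 in large oocytes. For both genes small and large oocytes did not overlap at P6.

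The opposite order, higher at E18.5 and lower in large oocytes, was found in RPM for 5 genes, Gins4, Pold2, Rfc1, Rfc2 and Rpa1 (11.9% of the members, 22.6% of all genes). Pold2 was at 51.4, 44.6 and 46.4 RPM at E14.5, 95.2, 97.3 and 98.1 at E18.5, 88, 86.9 and 94.1 in small and 34.3, 39.4 and 40.3 in large oocytes at P6. Rfc2 was at 53.4, 49 and 52.9 RPM, then 119, 126 and 117, then 104, 97.4 and 104, and at 50.6, 51.5 and 46.6 in large oocytes. In both, the large oocytes did not overlap E18.5 or small oocytes. Pold2 in large oocytes lay below every E14.5 library, and Rfc2 did not differ from E14.5 in limma's test in RPM, though it was 0.42 to 0.43 above it on the log2 scale under the other scalings.

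Rfc1 was at 112, 120 and 122 RPM at E14.5, 254, 279 and 256 at E18.5, 295, 297 and 283 in small and 181, 170 and 171 in large oocytes at P6, its fall with growth being lost under other scalings. Gins4 was at 44.2, 32.2 and 31.5 RPM, then 73.6, 67.5 and 61.6, then 129, 129 and 131 in small and 91.8, 91.8 and 88 in large oocytes. Rpa1 was at 106, 101 and 119 RPM, then 130, 160 and 133, then 479, 481 and 469 in small and 367, 429 and 419 in large oocytes. For these last 2 the sign of the growth step turned under the other scalings. Orc5 and Mcm10 were higher at both steps (4.76% of the members, 8.44% of all genes).

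**Figure D3:**
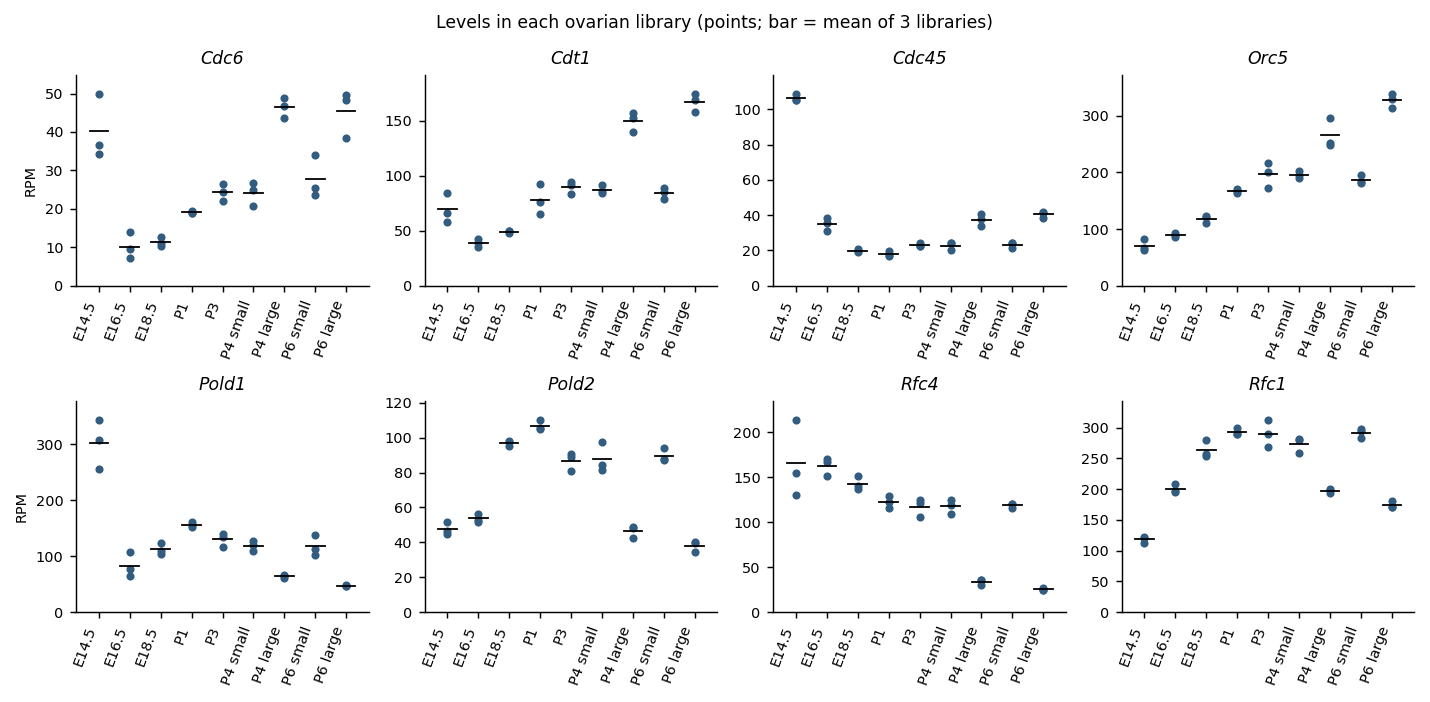
RPM of 8 genes in each ovarian library (points, 3 a group, with bars at the mean) along the 9 ovarian groups. Cdc6, Cdt1 and Cdc45 drop after E14.5 and are higher in large than in small oocytes, Orc5 climbs to 313 to 339 RPM in large oocytes at P6, and Pold1, Pold2, Rfc4 and Rfc1 are lower in large than in small oocytes.

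Set against E14.5, large oocytes at P6 held less of most members. Of 42 genes 31 were lower and 7 higher in RPM (all genes 51.3% and 32.1%), and 25 and 7 under every scaling (40.8% and 32%). The lower ones were led by Lig1 (log2 −2.88 ± 0.09), Pold1 (−2.65 ± 0.13), Rfc4 (−2.64 ± 0.12), Gins3 (−2.27), Pole (−2.22) and Mcm3 (−2.12). The 7 higher ones were Gins2 (2.5 ± 0.10), Orc5 (2.20 ± 0.09), Rpa1 (1.89 ± 0.10), Mcm10 (1.60), Gins4 (1.33), Cdt1 (1.26) and Rfc1 (0.55). Cdc6, Pole2, Rfc2 and Rfc3 did not pass in RPM, whereas 11 members were higher under each of the other scalings (share of all genes not given).

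Because subunits of a complex changed apart, their order within the complex changed. Levels of different genes are compared here as RPM per kb of exon, from the exon union of GENCODE vM21. Among the origin recognition subunits Orc5 was the lowest at E14.5 (11.5 RPM per kb, against 38.9 for the highest, Orc2, and within 1 SD of Orc4) and the highest in large oocytes at P6 (53.1, against 22.9 for the next, Orc2). In culture Orc5 was likewise the lowest at D5 (7.72, within 1 SD of Orc4 at 8.55) and the highest at D20 (51.1). Orc4 was the lowest in large oocytes (7.76).

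The GINS subunits, which form a complex with 1 copy of each, were far from even. At E14.5 Gins1 was the highest (36.8 RPM per kb) and Gins2 the lowest (4.40), a ratio of 8.35. In small oocytes at P6 Gins4 stood at 95.9 and Gins3 at 2.63, a ratio of 36.5, and in large ones at 67.1 and 5.57, a ratio of 12.1. In the clamp loader Rfc4 was the highest at E14.5 (108) and in small oocytes (77.5), and Rfc1 in large ones (28.9, with Rfc4 at 16.4). Rpa1 was the lowest of its complex at E14.5 (19.5, with Rpa2 at 91.1) and the highest in large oocytes (72.6, with Rpa3 lowest at 12.9).

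The MCM2 to MCM7 ring kept its leading subunit. Mcm5 was the highest at E14.5 (150 RPM per kb), E16.5 (67.2), E18.5 (61.8), P3 (56.3), in small and large oocytes at P6 (58.6 and 54.04), at D5 (113) and at D20 (55.5). The ratio of highest to lowest was 5.53 at E14.5, 8.17 at E16.5 and 3.36 in large oocytes. The order of subunits was not tested, and a union of exons is longer than the transcript that a cell uses where isoforms differ.

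**Figure D4:**
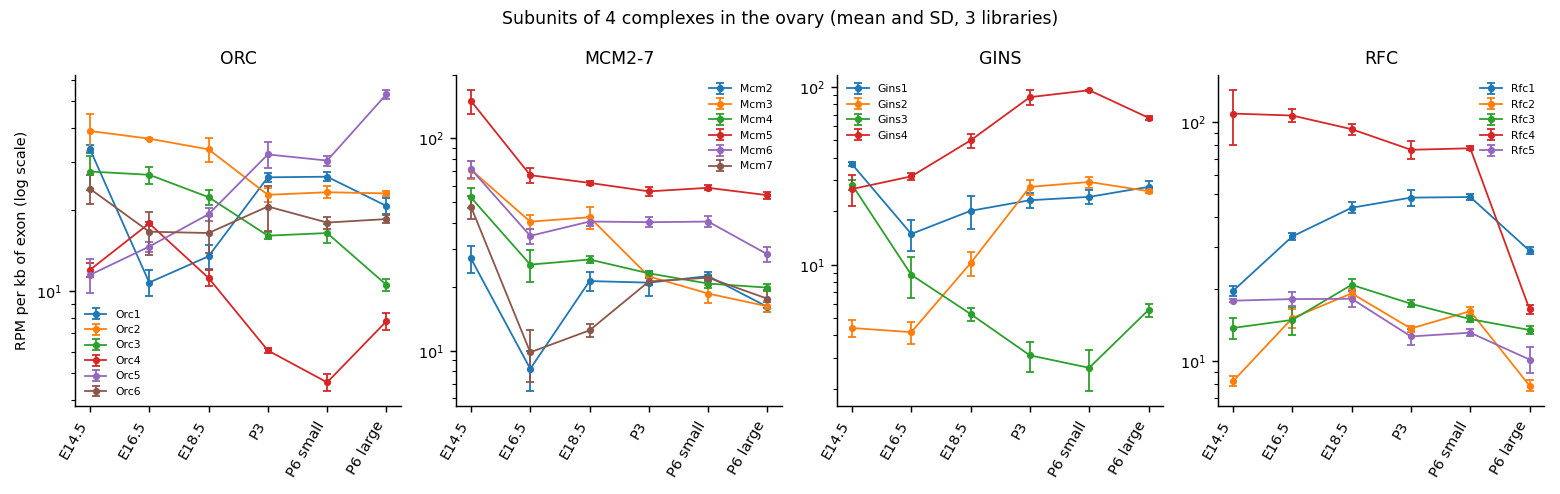
RPM per kb of exon (log axis, mean and SD of 3 libraries) of the subunits of 4 complexes in 6 ovarian groups. Orc5 goes from the lowest to the highest line of its complex (11.5 to 53.1), Gins3 and Gins4 lie furthest apart in small oocytes at P6 (2.63 and 95.9), and Rfc4 drops between small and large oocytes (77.5 to 16.4).

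Exons of 10 members overlap those of another gene in the table, on the same strand for 2, and over more than 10% of the member's exon bases for 5. The strand setting of the counting is not given in the sources used here, so reads of such pairs may be mixed. Gins2 shares 67.3% of its exon bases with Gse1 on the other strand, and Gse1 went from 59.8 RPM at E14.5 to 17.49 at E18.5, to 48.9 in small and 131 in large oocytes at P6, and from 40.9 at D5 to 139 at D20. It thus moved against Gins2 from E14.5 to E18.5, and both were higher in large oocytes at P6 than at E14.5 and at D20 than at D5. Rfc4 shares 12.7% with Eif4a2, which was at 472 RPM in small and 82.9 in large oocytes at P6, and at 313 at E14.5 and 1233 at E16.5, where Rfc4 did not pass. Orc2 shares 29.8% with Nif3l1, Rfc2 15.1% with Lat2 and Rfc5 10.7% with Wsb2. Eif4a2 was also at 476 RPM at D11 and 93.5 at D20, a step at which Rfc4 was called lower. The values of Gins2, Rfc4, Orc2 and Rfc5 are uncertain for this reason, by an amount that the shared percentage does not give. Lat2 was at most 7.87 RPM in any group.

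The culture course was read in steps from D5 to D11, D13 and D20, and its agreement with the ovarian course was not tested. From D5 to D11, 26 of 42 genes fell and 3 rose (all genes 15% and 31.2%; 26 and 3 under every scaling, all genes 12.6% and 23.3%). The falls were led by Mcm3 (log2 −1.24 ± 0.19), Gins1 (−1.22 ± 0.15), Rpa2 (−1.18 ± 0.13), Lig1 (−1.06) and Rpa3 (−1.05), and 8 of the 9 licensing genes were among them. The 3 rises were Gins2 (1.44), Orc5 (0.74) and Rpa1 (0.50), and 5 genes rose without library 1 of D11. Without library 2 of D5, 26 fell and 4 rose. With only these 2 groups in the fit 10 fell and 1 rose (all genes 3.63% and 14%). Markers of granulosa cells (8 of 10) and of stroma (8 of 8) rose over the same step, to 268 to 476 and 190 to 1825 RPM at D11. With D7, whose granulosa sum was 39 to 46.1 RPM, in place of D11, 10 fell and 1 rose (2333 of 16065 genes fell and 14.3% rose), and D20 gave 27 lower and 7 higher genes against D7 (49% and 29.2%). Under D7, Orc1, Orc2, Mcm5, Rfc4, Lig1, Gins3 and Rpa1 took the opposite sign against D5.

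From D11 to D13, the step at which the markers of other cells dropped, 27 genes fell and 6 rose (all genes 50.7% and 19.8%), which became 12 and 13 after rescaling (37.6% and 30.3%). Under every scaling 11 fell and 6 rose (34.6% and 19.4%). The 11 were Mcm3, Mcm4, Mcm6, Mcm7, Cdc45, Gins3, Pola1, Rpa3, Fen1, Rrm1 and Rrm2, led by Gins3 (log2 −1.69 ± 0.25) and Mcm3 (−1.57 ± 0.19). The 6 were Gins2 (1.44), Orc5 (1.2), Rpa1 (1.07), Gins4 (1.03), Cdt1 (0.94) and Mcm10 (0.46). All 8 stroma markers fell at this step, and their part was not tested. With D7 in place of D11 the same step gave 29 lower and 9 higher genes (45.5% and 28.7%).

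From D11 to D20 the culture gave 23 lower and 8 higher genes (all genes 55.1% and 22.5%), 9 and 17 after rescaling (40.3% and 34.4%), and 9 and 8 under every scaling (37.9% and 22.2%). In RPM both shares of members were near those of all genes, and so was the share higher under every scaling. Without library 3 of D11 the RPM counts were 26 and 9. Orc5 was at 43.3, 51.8 and 47.6 RPM at D5, 55.6, 66.2 and 139 at D11, 198, 163 and 196 at D13 and 329, 298 and 318 at D20 (D20 against D11, log2 1.96 ± 0.20, limma adjusted p = 2.5e-09). Every library from D13 on lay above those of D5 to D11. Cdt1 was at 102, 116 and 99.1 RPM at D5, 56.2, 69 and 55.8 at D11 and 183, 200 and 186 at D20 (1.64 ± 0.13).

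The other rises under every scaling were Mcm10 (log2 1.23), Rpa1 (1.07), Gins2 (1.06), Orc1 (0.79), Gins1 (0.54) and Gins4 (0.54). The falls were Rrm2 (−1.65), Lig1 (−1.64), Rfc4 (−1.41), Rpa3 (−1.21), Pole (−1.18), Mcm3 (−1.16), Pold1 (−1.16), Rrm1 (−1.15) and Rfc5 (−1.01). Rfc4 was at 127, 168 and 142 RPM at D5, 84.7, 72.2 and 67.1 at D11 and 24.7, 33.8 and 24.6 at D20, with no overlap between these days. Cdc6 did not pass (32.2 and 39.5 RPM, log2 0.29), nor did Orc2, Orc4, Orc6, Mcm5, Gins3, Prim2, Pold2, Pole2, Rfc1 and Rfc3.

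Oocytes at D20 were compared with large oocytes at P6. In the fit of both courses 3 of 42 genes were higher at D20 and 0 lower (all genes 9.62% and 4.59%). The 3 were Pold1 (64.1 against 46.8 RPM, log2 0.44 ± 0.13, limma adjusted p = 0.021), Rfc3 (0.41, limma adjusted p = 0.02) and Fen1 (0.41, limma adjusted p = 0.0053). At an unadjusted p under 0.05 there were 7 genes. None was called under every scaling (all genes 4.73% and 4.29%), edgeR calling 0 higher and 1 lower and DESeq2 2 and 1. Without library 1 or 3 of P6 large, or library 2 of D20, 1 gene was higher, and with only these 2 groups in the fit 7 were higher and 1 lower (all genes 20.4% and 9.91%). Strain, culture and stage differ together between these groups and cannot be told apart.

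At D21 the question was whether low oxygen or the Foxo3 transgene changes the oocyte's transcriptome. Foxo3, a transcription factor that keeps primordial oocytes dormant, was at 66.6 RPM in WT normoxia, 126 in WT hypoxia, and 323 and 366 in Tg normoxia and hypoxia. In WT oocytes 5 replication genes were higher under hypoxia and 4 lower (all genes 15.9% and 6.55%), the same 9 being called in every scaling (10.9% and 6.5%), with 7 to 8 lower in the others. The 5 were Rfc1, Pole, Mcm2, Pold1 and Lig1, and the 4 were Rpa3, Gins1, Gmnn and Pcna.

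Rfc1 was at 198 and 123 RPM in WT normoxia and 280 and 283 in WT hypoxia (log2 0.84 ± 0.23, n = 2 libraries a group, limma adjusted p = 0.028). Pold1 was at 79.4 and 59.1 RPM and then at 110 and 112 (0.69 ± 0.17, adjusted p = 0.022). Gmnn went the other way, from 72.7 and 104 RPM to 55.8 and 59.3 (−0.59 ± 0.18, adjusted p = 0.042). For each of these the groups did not overlap, and library 2 of normoxia was the one farther from the hypoxia libraries. Pole (0.83), Mcm2 (0.75), Lig1 (0.69), Rpa3 (−0.98), Gins1 (−0.62) and Pcna (−0.50) had adjusted p-values of 0.025 to 0.046.

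These calls rest on few libraries. Without library 2 of normoxia, or without either hypoxia library, 0 genes were called in either direction, without library 1 of normoxia 13 were higher and 6 lower, and with only these 2 groups in the fit 0 were called. Summed granulosa markers were 121 to 255 RPM in WT normoxia and 26 to 31.2 in WT hypoxia (5 of 8 tested markers fell), and summed blood markers 2.89 and 91.1 in normoxia. Their part was not tested.

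In Tg oocytes hypoxia gave no call among the 42 genes in limma's test (all genes 0.153% higher and 0.869% lower), edgeR or DESeq2, with 2 genes at an unadjusted p under 0.05. With only these 2 groups in the fit 6 were higher and 1 lower (all genes 16.4% and 12.1%). The interaction of oxygen and transgene called 0 members and 0 of all genes, again with 2 below 0.05 unadjusted, and edgeR and DESeq2 called 0. Tg against WT called 0 members in limma under normoxia (10 below 0.05 unadjusted), under hypoxia (0) and with oxygen not stated (3). All genes were called in 0.00695%, 0.00695% and 6.25% of cases as higher and 0%, 0% and 0.605% as lower. The 899 genes behind the 6.25% became 1 in edgeR and with a replicate block, and 0 with only these groups in the fit. DESeq2 called 4 members lower under normoxia and 2 with oxygen not stated, and edgeR 0 in each. Without library 1 of WT normoxia, Tg against WT in normoxia gave 13 higher and 6 lower and the interaction 3 and 9, and without library 2 of WT with oxygen not stated that comparison gave 2 and 3. Tg normoxia held Rfc1 at 247 and 223 RPM and Pold1 at 90.2 and 84.7, between the WT groups. On simulated data the WT oxygen comparison recovered 13.4% of 1.5-fold and 52.2% of 2-fold changes, so changes of that size can be missed here. The simulation changed 67 genes at each of these folds, of 14533 tested. In the data 2295 genes were called higher and 942 lower, so the recovered shares need not carry over.

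**Figure D5:**
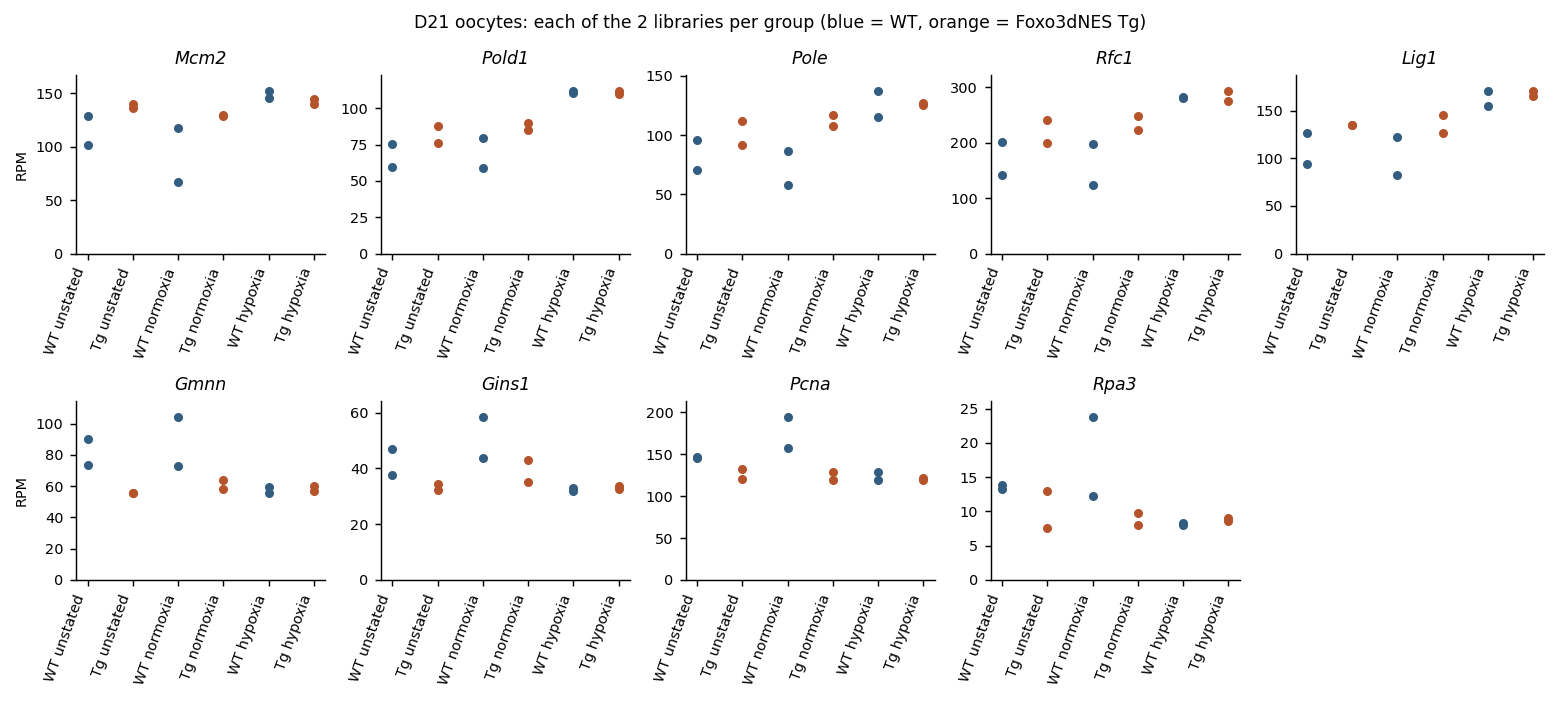
RPM of 9 genes in each of the 12 D21 libraries (points, 2 a group, blue for WT and orange for Tg). In Rfc1, Pold1, Pole, Mcm2 and Lig1 the WT normoxia libraries lie below the WT hypoxia libraries, with library 2 of normoxia the lowest, for instance 123 RPM of Rfc1 against 280 and 283.

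The neighbours of the set in growing oocytes are given from the same lists as for the fetal step, to be read against 22.1% of all genes higher and 51.3% lower in RPM, and 36.2% and 34.3% after rescaling. In large against small oocytes at P6, 14 of 24 switch genes were higher and 7 lower (15 and 4 after rescaling), and 12 of 18 mitotic genes higher and 3 lower (15 and 2). Fbxo5, an inhibitor of the anaphase-promoting complex, rose from 30.7 to 81.2 RPM (log2 1.39), Ccne2 by 1.05 and E2f4 by 1.04, while E2f3 fell from 21.3 to 2.22 (−2.79), E2f6 by 1.80 and Rbl2 by 1.44. Among mitotic genes Bub1b rose by 2.29, Plk1 by 1.82 and Prc1 by 1.38, and Aurkb (−1.09, lost after rescaling), Cenpe (−0.99) and Cdk1 (−0.98) fell.

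Of the 33 initiation and fork factors 10 were higher and 18 lower in large oocytes (17 and 11 after rescaling), where 22.1% and 51.3% of all genes were (36.2% and 34.3%). Exo1 (log2 1.79), Ticrr, which loads CDC45 (57.3 to 199 RPM, 1.78), and Top1 (1.44) rose, and Rnaseh2b (−1.90), Pold4, a small subunit of polymerase delta (−1.76), and Recql4 (−1.63) fell. In chromatin 6 of 12 rose and 5 fell (8 and 3), with Dnmt1, the maintenance DNA methyltransferase, going from 260.2 to 4754 RPM (4.19 ± 0.08), Slbp, which binds histone mRNA, from 84.6 to 517 (2.60) and Chaf1a by 1.62, while Chaf1b (−1.27), Rbbp4 (−0.93) and Tonsl (−0.85) fell. In nucleotide supply 4 of 13 rose and 5 fell (9 and 4), led by Ctps (1.65), Tk1 (24.3 to 72.7 RPM, 1.55) and Rrm2b (1.25) and by Impdh2 (−1.86), Dck (−1.80) and Cad (−1.67).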

How the data were processed

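Poly(A) RNA of 66 libraries was sequenced from directional libraries, per the labels' protocols. The submitters' processing notes name TopHat2, Bowtie2 2.0.13, featureCounts 1.5.1, R 3.4.4 and the build mm10, and the annotation and strand setting are not given in the sources used here. The authors deposited RPM (reads of a gene out of each 1e+06 reads) for 24062 genes, each library summing to 1e+06. Whole reads could be recovered for 100% of values (tolerance 0.02 reads), and edgeR 4.0.16 and DESeq2 1.42.0 were run on them as alternatives. The main test was limma 3.58.1 (R 4.3.3) with a mean-variance trend on log2(RPM + 1), which understates changes of low genes, for genes with a mean of at least 1 RPM in at least 1 group. Fits held the 27 ovarian libraries, the 27 culture libraries, both together (D20 against P6), or the 12 D21 libraries, with Benjamini-Hochberg adjustment over all tested genes and a threshold of 0.05. Replicates of a group had Pearson correlations of 0.969 to 0.998 and differed by more than sampling noise. On simulated data the P6 size comparison recovered 64.2% of 1.5-fold and 89.6% of 2-fold changes. The simulation changed 67 genes at each of these folds, of 15464 tested, far fewer than were called in the data. Its recovered shares need not carry over.

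The 42 members and the companion and marker lists were chosen with earlier results of these data known. Genes were named by role, with up to 3 called in each direction and up to 2 not called, shortened to counts and the largest changes in the lesser comparisons. Alternatives were the pseudocount, the filter, 4 scalings, only the groups compared, a replicate block, leaving out each library and a shorter motif.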

Additional observations from a re-analysis of the deposited data

Results flagged for a closer look

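In RPM, Pcna differed between P4 and P6 in its difference between large and small oocytes, by a test of that difference (interaction 0.37 ± 0.11 SE on the log2 scale, limma adjusted p = 0.038, n = 3 libraries a group). Its levels were 148, 167 and 154 RPM in small and 131, 145 and 145 in large oocytes at P4, which did not overlap and were lower in large ones. At P6 they were 126, 124 and 132 in small and 147, 155 and 142 in large oocytes, again with no overlap and higher in large ones. The P4 difference of Pcna was not called by limma's test in RPM, and its sign turned under the 4 other scalings. The P6 difference was called as higher under every scaling. For the interaction the 4 other scalings called 6, 2, 8 and 3 members in all, and the fit of only these groups 7 (3 higher and 4 lower). Shares of all genes are not given for these settings. The interaction of Pcna passed under each of the 4 other scalings. It did not pass when any of 9 of the 12 libraries was left out (P4 small 2 or 3, P4 large 1 or 3, P6 small 1 or 2, or any P6 large library), with changes of 0.32 to 0.41 and limma adjusted p-values of 0.031 to 0.12 over the 12 libraries.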

How the results depend on the processing

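The counts moved most often with the scaling, and the cause of each change below was not tested. Shares of all genes are not printed beside the member counts of this section, which show only how those counts depend on the processing. In the order median-of-ratios rescaling, edgeR, DESeq2 and limma on log2 CPM, the members higher and lower were 17 and 7, 12 and 7, 17 and 7, 12 and 7 for size at P4, and 27 and 5, 24 and 6, 27 and 6, 24 and 6 at P6. They were 13 and 12, 13 and 11, 13 and 13, 13 and 11 for D13 against D11, and 17 and 9, 17 and 9, 16 and 9, 17 and 9 for D20 against D11. All 4 gave 3 higher at E16.5 and 11 higher for large oocytes at P6 against E14.5. The interaction of size and age gave 6, 2, 8 and 3 higher. D20 against P6 large gave 2, 0, 2 and 1 higher and 1 lower in each, and WT hypoxia 7, 7, 8 and 7 lower. DESeq2 gave 4 lower for Tg against WT in normoxia and 2 with oxygen not stated.

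With only the groups compared in the fit, the counts became 3 higher and 4 lower for the interaction of size and age, 1 and 10 for D11 against D5, 7 and 1 for D20 against P6 large, 0 and 0 for WT hypoxia, and 6 and 1 for Tg hypoxia. With no filter on low values WT hypoxia gave 3 and 2. A pseudocount of 0.1 RPM moved no count past 1.5 times. With D7 in place of D11 the step from D5 gave 1 higher and 10 lower. The shorter E2F core of 7 letters was found in 67.6% of the members with a promoter, against 10.9% of all genes in the promoter table. For the 8 letters these shares were 41.2% and 2.60%. Leaving out 1 library at a time gave 4 to 6 higher and 29 lower for E16.5 against E14.5, 9 higher and 24 to 26 lower for E18.5 against E14.5, 9 to 12 higher and 11 to 14 lower for P3 against E18.5. The same ranges were 5 to 7 higher and 21 to 23 lower for P4 large against P4 small, 8 to 9 higher and 17 to 19 lower for P6 large against P6 small, 7 to 8 higher and 30 to 31 lower for P6 large against E14.5. They were 0 to 2 higher and 0 to 2 lower for size effect at P6 against size effect at P4 (interaction), 3 to 5 higher and 22 to 26 lower for D11 against D5, 5 to 8 higher and 24 to 28 lower for D13 against D11. They also were 8 to 9 higher and 19 to 26 lower for D20 against D11, 1 to 3 higher and 0 lower for D20 against P6 large, 0 to 13 higher and 0 to 6 lower for WT D21 hypoxia against normoxia. Further ranges were 0 higher and 0 lower for Foxo3dNES D21 hypoxia against normoxia, 0 to 13 higher and 0 to 6 lower for Foxo3dNES against WT, D21 normoxia, 0 higher and 0 lower for Foxo3dNES against WT, D21 hypoxia. The last ranges were 0 to 2 higher and 0 to 3 lower for Foxo3dNES against WT, D21 oxygen not stated, 0 to 3 higher and 0 to 9 lower for oxygen effect in Foxo3dNES against oxygen effect in WT, D21 (interaction). Without library 1 of WT normoxia both WT hypoxia and Tg against WT in normoxia gave 13 and 6.

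Same-numbered libraries had a median correlation of deviations of 0.0098 in the ovary, 0.0067 in the culture course and −0.027 at D21. The number of libraries closest to those of their own number was 12 of 27, 15 of 27 and 4 of 12. In the culture course single correlations reached 0.56, so a pairing of some libraries is not excluded. At D21, with 2 libraries a group, the medians of same- and other-numbered pairs are opposite by construction (−0.027 and 0.027) and cannot decide it. With the replicate number as a block WT hypoxia gave 3 higher and 2 lower, and no other count of members moved past 1.5 times. Over all genes, those higher in Tg than in WT with oxygen not stated went from 899 to 1 and those lower from 87 to 0 under the block.

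The genes below are those chosen for naming that changed direction and passed the test before or after, with their log2 change under the scalings named. Among all 42, called or not, the sign was kept by 20 at P4, 23 at P6 and 26 for D20 against D11. In E16.5 against E14.5, Gins4 (−0.010, −0.018) turned under edgeR and DESeq2. Rfc5 (−0.22, −0.22, −0.22, −0.22) turned under the 4 scalings. In P4 large against P4 small, Mcm7 (0.0096, 0.012), Mcm2 (0.042, 0.042), Fen1 (0.025, 0.027), Rpa2 (0.036, 0.029) and Gins4 (0.046, 0.046) turned under rescaling and DESeq2. Gins2 (0.24, 0.24) and Rfc1 (0.0028, 0.0023) turned under rescaling and DESeq2. Mcm5 (0.35, 0.30, 0.35, 0.30), Pola1 (0.39, 0.35, 0.40, 0.34), Orc2 (0.34, 0.29, 0.34, 0.29) and Pcna (0.32, 0.27, 0.32, 0.27) turned under the 4 scalings. In P6 large against P6 small, Mcm6 (0.10, 0.034, 0.10, 0.030), Mcm2 (0.13, 0.063, 0.13, 0.062), Mcm7 (0.28, 0.22, 0.28, 0.21), Mcm5 (0.50, 0.43, 0.50, 0.43) and Mcm4 (0.54, 0.48, 0.55, 0.48) turned under the 4 scalings. Prim2 (0.56, 0.50, 0.57, 0.50), Orc1 (0.25, 0.19, 0.26, 0.18), Orc2 (0.59, 0.53, 0.60, 0.53), Rpa1 (0.38, 0.31, 0.38, 0.31) and Fen1 (0.37, 0.31, 0.38, 0.31) turned under the 4 scalings. Rpa2 (0.46, 0.40, 0.47, 0.40), Rrm1 (0.18, 0.11, 0.18, 0.11), Gins4 (0.10, 0.029, 0.10, 0.029), Gins2 (0.44, 0.37, 0.44, 0.37) and Rfc3 (0.45, 0.39, 0.46, 0.39) turned under the 4 scalings. In P6 large against E14.5, Gins1 (0.064, 0.068, 0.065, 0.067), Rfc2 (0.42, 0.43, 0.43, 0.43) and Rfc3 (0.46, 0.46, 0.46, 0.47) turned under the 4 scalings. In D13 against D11, Orc4 (0.048, 0.093, 0.035, 0.10) turned under the 4 scalings. Rfc4 (0.010, 0.014) turned under edgeR and limma on CPM. In D20 against D11, Mcm5 (0.45, 0.47, 0.42, 0.50), Orc2 (0.47, 0.52, 0.47, 0.52), Orc4 (0.60, 0.65, 0.60, 0.66) and Rfc2 (0.17, 0.22, 0.17, 0.22) turned under the 4 scalings. Rpa2 (0.022, 0.021) turned under edgeR and limma on CPM. Cdc45 (0.031, 0.080) turned under rescaling and limma on CPM. With D7 in place of D11, a choice made after seeing the data, Mcm5 (0.11), Orc1 (0.10), Orc2 (0.10), Rpa1 (−0.34), Lig1 (0.015), Gins3 (0.69) and Rfc4 (0.082) turned against D5, and Pole2 (0.069), Orc1 (−0.72) and Gins1 (−0.71) at D13.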
